A study of Mus musculus with 16 samples.

Results

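The joining segments of the T cell receptor alpha locus (TRAJ) were followed through the receptor contigs of 2 tissues, ordered along the chromosome from the 5′ end, which lies nearest to the variable segments, to the 3′ end, which lies nearest to the constant gene. Members were the productive, full-length alpha chain (TRA) contigs whose J call was a numbered TRAJ segment. There were 1771 such contigs among 4545 in skin and 3416 among 9927 in the lymph node, in 1606 of 1986 and 2993 of 3744 cell barcodes. They used 43 TRAJ segments, and each of the 43 was seen in both tissues. The mm10 annotation (GENCODE M21) lists 60 segments, of which 51 are annotated as genes and 9 as pseudogenes.

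The study sequenced RNA and receptors of single CD8+CD44+ T cells, that is, cytotoxic lineage cells with a surface protein of antigen-experienced T cells. All cells came from 16-week-old C57BL/6 mice with melanoma-associated vitiligo, an immune loss of pigment cells that accompanies a response to melanoma, 45 days after the tumor had been removed by surgery. The skin group came from vitiligo-affected skin, minced and digested with collagenase and DNase, and the lymph node group from the matched tumor-draining node, dissociated mechanically. Each tissue is 1 receptor library run on 4 lanes that share its cells. The sources used here do not give the number of mice, there was no group without vitiligo, and no test across samples could be made, so every interval given is a 95% interval that covers counting error only.

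An alpha chain is made by joining 1 V segment to 1 J segment, with no D segment between them, and the join is cut back and filled with a few random bases to form the third complementarity determining region (CDR3), the loop that meets the antigenic peptide. In developing thymocytes the first joins use V segments and J segments that lie close to each other, and further joins on the same chromosome replace them with V segments farther upstream and J segments farther downstream, until the receptor is positively selected or the cell dies. The J number therefore records roughly where along the locus the last join was made.

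The germline segments that the results turn on are given here from the annotated mm10 transcripts, all on the plus strand, with the bases that belong to the CDR3 in capitals, up to and including the codon that closes it. The first 6 are the segments with most clones in either tissue.
TRAJ49 (chr14:54168686-54168747): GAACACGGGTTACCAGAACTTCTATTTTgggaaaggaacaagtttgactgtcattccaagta
TRAJ30 (chr14:54189866-54189924): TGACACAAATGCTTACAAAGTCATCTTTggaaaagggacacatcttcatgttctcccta
TRAJ26 (chr14:54194490-54194549): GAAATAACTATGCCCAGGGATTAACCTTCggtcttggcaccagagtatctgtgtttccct
TRAJ23 (chr14:54196081-54196140): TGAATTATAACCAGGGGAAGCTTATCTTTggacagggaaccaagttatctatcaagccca
TRAJ22 (chr14:54197248-54197307): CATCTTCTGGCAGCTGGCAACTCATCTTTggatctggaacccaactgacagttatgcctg
TRAJ12 (chr14:54206553-54206610): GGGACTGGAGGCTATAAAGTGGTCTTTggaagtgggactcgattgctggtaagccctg
The next 4 stood highest or lowest in skin relative to the lymph node.
TRAJ47 (chr14:54171800-54171856): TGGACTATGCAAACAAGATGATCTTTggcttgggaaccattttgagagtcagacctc
TRAJ42 (chr14:54175773-54175836): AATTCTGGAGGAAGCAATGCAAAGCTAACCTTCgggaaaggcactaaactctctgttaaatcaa
TRAJ13 (chr14:54205741-54205797): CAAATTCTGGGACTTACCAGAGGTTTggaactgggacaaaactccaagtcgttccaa
TRAJ6 (chr14:54212688-54212749): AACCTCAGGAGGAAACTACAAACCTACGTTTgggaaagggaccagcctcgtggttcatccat
The next 5 are TRAJ53 and TRAJ33, with the longest and shortest loops, TRAJ45, which carried the largest skin clone, TRAJ44, with its own closing codon, and TRAJ11, the segment with most expanded relative to singleton clones among those with at least 10 skin clones.
TRAJ53 (chr14:54162644-54162709): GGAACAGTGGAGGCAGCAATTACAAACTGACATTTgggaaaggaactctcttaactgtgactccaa
TRAJ45 (chr14:54172828-54172890): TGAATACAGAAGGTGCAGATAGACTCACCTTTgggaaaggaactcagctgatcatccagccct
TRAJ44 (chr14:54173690-54173750): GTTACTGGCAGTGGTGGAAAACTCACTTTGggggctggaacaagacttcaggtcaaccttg
TRAJ33 (chr14:54185358-54185414): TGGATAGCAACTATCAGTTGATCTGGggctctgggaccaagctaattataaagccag
TRAJ11 (chr14:54207139-54207197): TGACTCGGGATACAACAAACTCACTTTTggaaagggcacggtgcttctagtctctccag
The last 2 are annotated as genes and were not seen in a productive contig. They are printed in lower case because no CDR3 end was assigned to them.
TRAJ46 (chr14:54172336-54172398): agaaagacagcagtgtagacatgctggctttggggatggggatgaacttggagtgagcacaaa
TRAJ41 (chr14:54176271-54176325): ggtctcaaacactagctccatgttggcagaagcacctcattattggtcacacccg

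The cluster runs from TRAJ61 to TRAJ1 over 63.8 kb (chr14:54155005-54218842) and is followed by the constant gene Trac (chr14:54220521-54224206). It was divided by number into a 5′ range from TRAJ61 to TRAJ41, with 13 segments seen, a middle range from TRAJ40 to TRAJ21, with 17, and a 3′ range from TRAJ20 to TRAJ1, with 13. A functional J segment ends its loop with phenylalanine or tryptophan followed by glycine, any residue and glycine. Codons for that motif, read in any frame of the plus strand, were present in 42 of the 43 segments seen, in 2 of the 8 annotated genes not seen and in 1 of the 9 pseudogenes. The exception among the segments seen was TRAJ44, whose loop closes with TTG, a leucine codon, as its sequence above shows. The 8 annotated genes not seen in any productive contig were TRAJ3, TRAJ19, TRAJ20, TRAJ25, TRAJ29, TRAJ41, TRAJ46 and TRAJ59.

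A clone was a set of cells with identical TRA and TRB CDR3 nucleotide sequences, in cells with 1 TRB and 1 or 2 TRA chains. This gave 701 clones in 1322 skin cells and 2486 clones in 2548 lymph node cells. Productive TRA contigs had a median of 3 UMIs (tagged molecules) in each tissue. The tables shared 12 barcodes, and none of those carried the same clone in both. The lymph node RNA table held 3266 cells with a median of 4423 UMIs. Cd3e, a subunit of the T cell receptor complex, had a UMI in 95.3% of them and Cd8b1, the CD8 beta chain, in 96.6%, while Cd4 was not among its 9428 genes. Cd44 had a UMI in 25.995% of these cells. Cd40lg, also looked up as a marker of CD4 T cells, had 115 UMIs in 2.76% of them, and Lyz2, a myeloid marker, 33 UMIs in 0.704%. The other myeloid markers looked up, and those of gamma delta T cells and B cells, were not among the genes. Skin RNA was not analysed here, so the identity of the skin cells rests on their receptors and on the label.

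In both tissues the middle of the cluster supplied most of the clones, and a few segments there stood well above their neighbours. TRAJ22 came first in each tissue, with 43 of 701 skin clones (6.13%, 4.47 to 8.17) and 215 of 2486 lymph node clones (8.65%, 7.57 to 9.82). The next in skin were TRAJ23 with 42 clones, TRAJ30 with 39, TRAJ26 with 37 and TRAJ12 with 31. In the lymph node they were TRAJ26 with 133 clones, TRAJ30 with 128, TRAJ49 with 125 and TRAJ23 with 109. In skin the intervals of these leading segments overlapped, TRAJ22 included, so their order is not resolved. In the lymph node the interval of TRAJ22 lay above those of all other segments. An equal use of the 43 segments would give each 2.33% of clones, whereas the 10 most used held 45.2% of skin clones and 45.1% of lymph node clones. At the other end TRAJ2 had 2 skin clones and 12 lymph node clones, the fewest in each tissue.

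**Figure D1:**
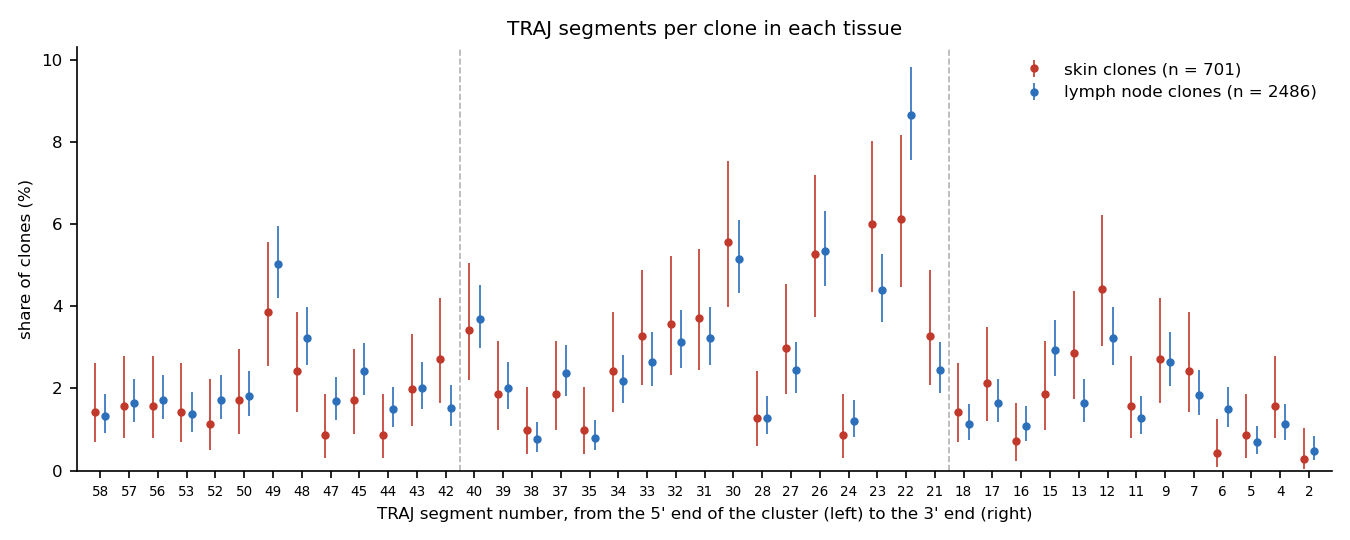
Share of clones (%) that used each TRAJ segment, from the 5′ end of the cluster on the left to the 3′ end on the right, in skin (red) and in the lymph node (blue). Points are the share of 701 skin clones or 2486 lymph node clones, bars are exact 95% intervals for counting error, and dashed lines part the 3 ranges. The peaks at TRAJ49, TRAJ30, TRAJ26, TRAJ23, TRAJ22 and TRAJ12 appear in both tissues.

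The segments used most in skin were mostly those used most in the lymph node. Their shares had a Pearson correlation of 0.88 and a Spearman rho of 0.87 across segments, which are not independent because all shares come from the same 2 libraries. Neighbours along the chromosome could differ widely. TRAJ23 held 42 skin clones and TRAJ24, which lies next to it, 6, and the same pair held 109 and 30 clones in the lymph node. Per annotated range, the mean number of clones per segment seen was 12.5 in the 5′ range, 22.1 in the middle range and 12.5 in the 3′ range of skin. In the lymph node it was 51.6, 75.7 and 40.6.

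Skin clones used the 5′ range somewhat less than lymph node clones, by a margin near the limit of what the clone counts resolve. The 5′ range held 163 of 701 skin clones (23.3%, 20.2 to 26.6) and 671 of 2486 lymph node clones (27.0%, 25.3 to 28.8). The difference, skin minus lymph node, was -3.74 percentage points (-7.21 to -0.0511). The middle range held 53.5% of skin clones and 51.8% of lymph node clones, a difference of 1.73 points (-2.46 to 5.88), and the 3′ range 23.3% and 21.2%, a difference of 2.01 points (-1.39 to 5.64). Of the 5′ segments, 3 of 13 had a higher share in skin than in the lymph node. Of the middle segments it was 10 of 17 and of the 3′ segments 9 of 13. The median J number was 30 in skin (27 to 30) and 30 in the lymph node (30 to 30), with quartiles of 21 and 40 in skin and 22 and 43 in the lymph node. The interval of the 5′ difference included 0 in 6 of the 11 alternative settings that gave one. Contigs of any confidence, counted among the 11, could not change it, because no contig was of low confidence. With each cell counted once, a setting also among the 11, the difference was 4.66 points. The cells of a clone repeat 1 rearrangement, so the interval of that setting is too narrow and is not given. Without the largest skin clone the 5′ range held 26.7% of skin cells, against 26.9% of lymph node cells.

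Few segments parted between the tissues. Among the 42 segments with at least 20 clones over both tissues, 8 (19.0%) were past 1.5-fold in skin over lymph node clone share, 2 of them higher (4.76%) and 6 lower (14.3%). Over all 125 V and J segments of both chains that met the same minimum, 26.4% were past 1.5-fold, 8.80% higher and 17.6% lower, so TRAJ segments parted no more often than receptor segments at large. The corresponding figure was 37.3% for the 51 TRAV segments. The 1.5-fold count for TRAJ moved between 1 and 13 with the setting, as given in the closing section.

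TRAJ42, in the 5′ range next to the middle one, had the highest ratio. It joined 19 skin clones (2.71%, 1.64 to 4.20) and 38 lymph node clones (1.53%, 1.08 to 2.09), a ratio of 1.77 and a difference of 1.18 points (0.062 to 2.72). TRAJ13, in the 3′ range, followed with 20 skin clones (2.85%) and 41 lymph node clones (1.65%), a ratio of 1.73 and a difference of 1.20 points (0.049 to 2.78). Then came TRAJ4 with 11 skin clones and 28 lymph node clones, a ratio of 1.39, and TRAJ12 with 31 and 80, a ratio of 1.37. For TRAJ4 and TRAJ12 the interval of the difference included 0. All of these except TRAJ42 lie in the 3′ range. Under other settings the interval of the log2 ratio of skin over lymph node share included 0 in 4 of 9 for TRAJ13 and in 2 of 9 for TRAJ42.

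TRAJ6 had the lowest ratio, 0.288, with 3 skin clones (0.428%, 0.088 to 1.25) and 37 lymph node clones (1.49%, 1.05 to 2.05). The difference for TRAJ6 was -1.06 points (-1.68 to -0.143), and the interval of its log2 ratio included 0 under 2 of 9 other settings. TRAJ47 had 6 skin clones and 42 lymph node clones (ratio 0.507), TRAJ44 had 6 and 37 (0.575), and TRAJ15 had 13 and 73 (0.632). The intervals of these last differences included 0. TRAJ22 was the segment with the largest absolute difference, -2.51 points (-4.45 to -0.236). Of all 43 segments, the interval of the difference lay above 0 for 2, TRAJ13 and TRAJ42, and below 0 for 2, TRAJ6 and TRAJ22, with no allowance for the number of segments compared.

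The lymph node count of TRAJ22 rested in part on 1 alpha chain. The sequence that joins TRAV14-2 to TRAJ22 with no base added between the V and J parts was found with 18 different beta chains in 19 lymph node cells, and in 1 skin clone. Its CDR3 is printed here with the part matched to germline TRAJ22 in capitals.
TRAV14-2 to TRAJ22: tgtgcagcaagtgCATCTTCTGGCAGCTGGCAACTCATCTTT
All 29 germline CDR3 bases of TRAJ22 are kept in it. Without this sequence TRAJ22 held 42 of 700 skin clones (6.00%, 4.36 to 8.02) and 197 of 2468 lymph node clones (7.98%, 6.94 to 9.12), and it was still the most used segment in the lymph node. The difference was then -1.98 points (-3.89 to 0.266), an interval that includes 0. Each pairing with another beta chain counts as a clone here.

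Alpha sequences that recurred with more than 1 beta chain made up 85 of 701 skin clones (12.1%, 9.80 to 14.8) and 224 of 2486 lymph node clones (9.01%, 7.91 to 10.2). By range the share was 11.7% in the 5′, 13.9% in the middle and 8.59% in the 3′ range of skin, against 6.26%, 11.2% and 7.20% in the lymph node. These sequences had fewer added bases: the median number between the V and J parts was 2 in skin, against 3 in the other skin clones, and 1 in the lymph node, against 3 in the others. In the 5′ range of skin both medians were 2, and in every other range of either tissue the recurring sequences had the lower median. The most frequent in skin joined TRAV8D-2 to TRAJ21, with 7 beta chains in 26 cells and 0 bases between V and J, and the next joined TRAV21-DV12 to TRAJ57, with 4 beta chains in 4 cells.
TRAV8D-2 to TRAJ21: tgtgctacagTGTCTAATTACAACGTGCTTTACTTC
TRAV21-DV12 to TRAJ57: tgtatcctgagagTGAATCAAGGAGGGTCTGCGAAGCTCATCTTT
In the lymph node the second most frequent was the TRAV13-1 to TRAJ44 chain, with 6 beta chains in 7 cells. The same TRA sequence belongs to a skin clone of 17 cells described further on.

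Counting cells in place of clones changed the skin profile at 1 segment above all. TRAJ45 was used by 128 of 1322 skin cells (9.68%) and by 12 of 701 skin clones (1.71%, 0.888 to 2.97), a gap of 7.97 points. In the lymph node it was used by 2.51% of cells and 60 of 2486 clones (2.41%). Its 12 skin clones held 88, 23, 7 and 2 cells, and the other 8 held 1 cell each. Without the clone of 88 cells TRAJ45 was used by 40 of 1234 skin cells (3.24%), and without its 2 largest clones by 17 of 1211 (1.40%). The per-cell excess of TRAJ45 in skin is thus carried by a pair of rearrangements.

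**Figure D2:**
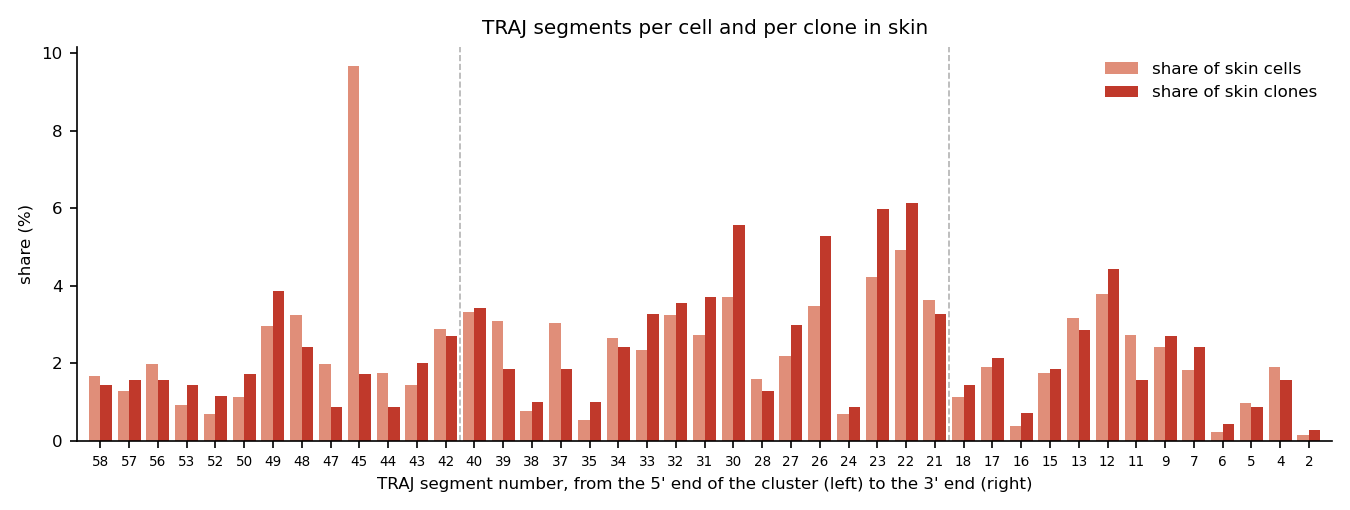
Share (%) of skin cells (light bars) and of skin clones (dark bars) by TRAJ segment, from the 5′ end on the left to the 3′ end on the right, over 1322 cells and 701 clones. TRAJ45 stands at 9.68% of cells against 1.71% of clones, while TRAJ30, TRAJ26 and TRAJ23 are higher per clone than per cell.

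The other gaps were smaller. TRAJ39 was used by 41 skin cells (3.10%) and 13 skin clones (1.85%), with clones of 20 and 8 cells, a gap of 1.25 points, and TRAJ37 by 40 cells (3.03%) and 13 clones (1.85%), with clones of 14 and 7 cells, a gap of 1.17 points. TRAJ30, TRAJ26 and TRAJ23 went the other way, with gaps of -1.86, -1.80 and -1.76 points. Their largest skin clones held 4 cells each, so that many clones added few cells. Over all segments 16 had a higher share per cell and 27 a higher share per clone. In the lymph node, where 59 of 2486 clones had more than 1 cell, the 5′ range held 26.9% of cells and 27.0% of clones.

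The CDR3 sequences of the 6 largest skin clones show how much of the germline J each one kept. Capitals mark the bases that match the germline J segment, counted back from the 3′ end of the CDR3, and the lower-case part holds the V segment's end and the bases between.
TRAJ45, 88 skin cells: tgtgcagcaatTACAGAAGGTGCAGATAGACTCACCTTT
TRAJ45, 23 skin cells: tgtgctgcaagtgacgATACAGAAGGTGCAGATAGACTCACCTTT
TRAJ39, 20 skin cells: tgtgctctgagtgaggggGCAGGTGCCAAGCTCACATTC
TRAJ47, 17 skin cells: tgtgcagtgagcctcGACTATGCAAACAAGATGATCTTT
TRAJ44, 17 skin cells: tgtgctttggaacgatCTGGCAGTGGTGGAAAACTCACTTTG
TRAJ56, 16 skin cells: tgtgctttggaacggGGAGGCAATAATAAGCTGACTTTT

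The TRAJ45 clones were separate rearrangements with different V segments and beta chains. The clone of 88 cells (6.66% of skin cells, 5.37 to 8.14) joined TRAV14-3 to TRAJ45 beside TRBV3, kept 28 of the 32 germline CDR3 bases of TRAJ45 and had 13 amino acids in its loop. The clone of 23 cells (1.74%, 1.11 to 2.60) joined TRAV5-4 to TRAJ45 beside TRBV13-1, kept 29 and had 15 amino acids. Each had 3 cells in the lymph node. The TRAJ39 clone had 21 germline J bases left, after a loss of 11. The TRAJ47 clone used the same beta V segment as the largest clone, TRBV3. The TRAJ44 and TRAJ56 clones shared TRAV13-1 and TRBV19 but had different J segments, and the TRAJ44 clone had 2 lymph node cells.

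Expanded skin clones, those with at least 2 cells, were spread over the whole cluster. Of the 43 segments, 39 had at least 1 expanded clone, and TRAJ2, TRAJ6, TRAJ16 and TRAJ35, each with 7 clones or fewer, had none. The 5′ range held 46 of 183 expanded clones (25.1%, 19.0 to 32.1) and 117 of 518 singleton clones (22.6%, 19.1 to 26.4), a difference of 2.55 points (-4.32 to 10.1). The middle range held 48.6% of expanded and 55.2% of singleton clones, a difference of -6.58 points (-14.9 to 1.81). The 3′ range held 26.2% and 22.2%, a difference of 4.03 points (-2.92 to 11.6). The median J number was 30 in expanded clones (26 to 32) and 30 in singleton clones (27 to 30). None of the 3 differences could be told from 0 at this number of clones.

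Single segments, which have smaller counts than the ranges, moved more. Of the 32 segments with at least 10 skin clones, 15 (46.9%) were past 1.5-fold in expanded over singleton share, 9 higher (28.1%) and 6 lower (18.8%). Of the 89 V and J segments of both chains that met the same minimum, 44.9% were past 1.5-fold, 23.6% higher and 21.3% lower. TRAJ11 had the highest ratio, 3.397, with 6 of 183 expanded clones (3.28%, 1.21 to 6.999) and 5 of 518 singleton clones (0.965%, 0.314 to 2.24). TRAJ4 had 5 and 6 clones (ratio 2.36) and TRAJ18 had 4 and 6 (1.89). TRAJ56 had the lowest ratio, 0.283, with 1 and 10 clones, followed by TRAJ30 with 6 and 33 (0.515) and TRAJ26 with 6 and 31 (0.548). The difference in share for TRAJ11 was 2.31 points (0.135 to 6.04). Its skin clones were not all separate alpha chains. The sequence that joins TRAV6-2 to TRAJ11 occurred with 2 beta chains in 13 cells, at most 7 in a clone. Another, from TRAV6N-7, occurred with 3 beta chains in 5 cells. Each pairing counts as a clone, and the difference without these sequences was not computed. For the other 31 segments with at least 10 skin clones the interval of the difference included 0, and no allowance was made for the number of segments compared. TRAJ56 shows how the measures part: it has 1 expanded clone, and that clone, with 16 cells, is among the 6 largest.

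The order by clone size was uneven at the top. The 5′ range held 22.6% of clones of 1 cell, 36 of 148 clones of 2 to 4 cells (24.3%, 17.7 to 32.1), 2 of 22 clones of 5 to 9 cells (9.09%, 1.12 to 29.2) and 8 of 13 clones of 10 or more cells (61.5%, 31.6 to 86.1). Those 8 used TRAJ45 in 2 clones and TRAJ58, TRAJ56, TRAJ48, TRAJ47, TRAJ44 and TRAJ42 in 1 clone each. The other 5 used TRAJ39, TRAJ37 and TRAJ28 of the middle range and TRAJ13 and TRAJ9 of the 3′ range. The share thus did not change in 1 direction with size, and the 2 upper classes together hold 35 clones. In cells, the 5′ range held 31.5% of skin cells, and 26.7% of skin cells without the largest clone, against 26.9% of lymph node cells.

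**Figure D3:**
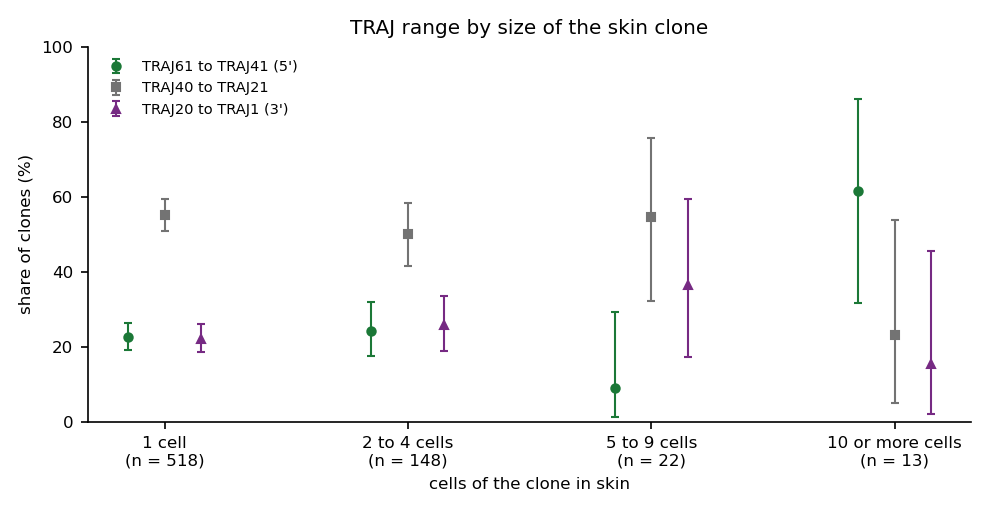
Share of skin clones (%) in the 5′ (circles), middle (squares) and 3′ (triangles) range of the TRAJ cluster, by the number of cells of the clone. Bars are exact 95% intervals for counting error, and n is the number of clones. The 5′ share is 22.6% in clones of 1 cell and 61.5% in the 13 clones of 10 or more cells, where the interval runs from 31.6% to 86.1%.

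The 31 clones found in both tissues were spread over 22 segments. The 5′ range held 11 of them (35.5%, 19.2 to 54.6), the middle range 13 (41.9%) and the 3′ range 7 (22.6%). TRAJ44 and TRAJ34 had 3 such clones each. In skin these clones held 231 cells, 154 of them in the 5′ range, of which 111 belong to the TRAJ45 clones of 88 and 23 cells. The interval for the 5′ range covers the shares of all skin clones and of all lymph node clones.

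The J number followed the position of the V segment in both tissues. Across clones, the Spearman correlation between the position of the TRAV segment along the locus and the J number was 0.49 in skin (701 clones) and 0.48 in the lymph node (2486 clones), with V segments nearer to the J cluster joined to higher J numbers. It was 0.56 in 183 expanded and 0.47 in 518 singleton skin clones. Many mouse TRAV families have near-identical copies whose names carry a D or N, and a call to the wrong copy would misplace a V segment by a long distance. The families with no such copy had 5 TRAV segments in skin clones and 6 in lymph node clones. They lie only at the ends of the stretch, TRAV1 and TRAV2 at 1726 and 1587 kb from TRAJ61 and the others within 348 kb. Among them the correlation was 0.65 in skin (26 clones, 0.347 to 0.827) and 0.49 in the lymph node (98 clones, 0.317 to 0.623). A contrast of the ends cannot show whether wrong-copy calls distort the correlation over the part between.

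The stretch of TRAV segments, from 1727 to 178 kb upstream of TRAJ61, was divided into 4 equal parts. From the farthest to the nearest part, the 5′ range held 13.9%, 7.02%, 21.8% and 50% of skin clones (n = 72, 228, 225 and 176). The same shares of lymph node clones were 9.50%, 9.49%, 22.8% and 55.6% (n = 200, 811, 746 and 729). The 3′ range ran the other way, with 27.8%, 39.5%, 21.3% and 2.84% in skin and 32.0%, 34.4%, 19.2% and 5.76% in the lymph node. The nearest part thus joined the 3′ range in 5 of 176 skin clones and 42 of 729 lymph node clones. The median J number was 41 in skin and 43 in the lymph node for the nearest part, and 22 and 23 for the second farthest.

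**Figure D4:**
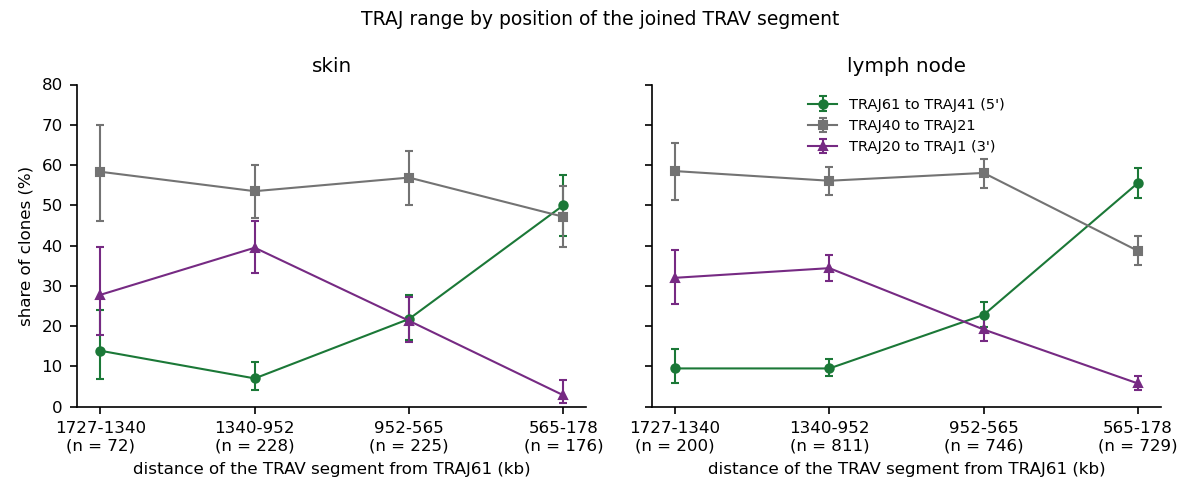
Share of clones (%) in the 5′ (circles), middle (squares) and 3′ (triangles) TRAJ range by the distance of the joined TRAV segment from TRAJ61 (kb, farthest on the left), in skin (left panel) and in the lymph node (right panel). Bars are exact 95% intervals for counting error, and n is the number of clones. The 5′ share reaches 50% in skin and 55.6% in the lymph node for the nearest TRAV segments.

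Single V segments at the ends of the stretch mostly showed the same order. TRAV1, TRAV2 and TRAV3-1, the 3 farthest segments with a clone, had 5, 4 and 8 skin clones and 6, 11 and 21 lymph node clones, and none of these joined the 5′ range. TRAV19, 309 kb from TRAJ61, joined the 5′ range in 4 of 4 skin clones and 44 of 49 lymph node clones. TRAV21-DV12, 278 kb away, did so in 8 of 10 skin clones and 16 of 20 lymph node clones, and TRAV17, 348 kb away, in 3 of 3 and 7 of 11. TRAV18, 323 kb away and so between TRAV17 and TRAV19, had 1 clone, in the lymph node, which joined TRAJ34 of the middle range. The lymph node had a larger share of clones with V segments of the nearest part (729 of 2486) than skin (176 of 701). When skin clones were weighted to the lymph node mix over the 4 parts, the 5′ difference between skin and lymph node was -2.39 points in place of -3.74.

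Cells that carried a second alpha chain allowed the J segments of the 2 chains to be compared. Barcodes with 2 or more beta sequences, 72 in skin and 394 in the lymph node, were left out. No doublet caller was run, and the part that remaining doublets have in these values was not tested. In cells with 2 productive chains the J numbers had a Spearman correlation of 0.51 in skin (94 distinct pairs) and 0.46 in the lymph node (288 pairs). Where 1 chain was productive and the other was not, it was 0.60 in skin (76 pairs) and 0.58 in the lymph node (210 pairs). The 2 chains fell in the same range in 55.3% (44.7 to 65.6) of productive pairs in skin and 58.0% (52.1 to 63.8) in the lymph node, and in 63.2% and 60.5% of the mixed pairs. The middle range alone held 53.5% of skin clones and 51.8% of lymph node clones, so unrelated chains would also often share a range. The share to be had from unrelated chains was not computed. The median distance was 8 and 9 segment numbers for productive pairs in skin and lymph node, and 6 and 7 for mixed pairs.

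Nonproductive alpha sequences, here those not called productive, were counted beside the productive ones. They did not have to be full-length, whereas productive ones did, and contigs of undetermined productivity were not set apart. Some may therefore come from an expressed chain. With each nonproductive sequence counted once, the 5′ range held 36 of 150 in skin (24.0%, 17.4 to 31.6) and 99 of 426 in the lymph node (23.2%, 19.3 to 27.5). Among productive sequences it held 184 of 805 in skin (22.9%, 19.998 to 25.9) and 809 of 3103 in the lymph node (26.1%, 24.5 to 27.7). The 3′ range held 29.3% of nonproductive and 25.3% of productive sequences in skin, and 27.5% (23.3 to 32.0) and 22.2% (20.7 to 23.7) in the lymph node. The difference in the 3′ range of the lymph node was 5.29 points (1.001 to 9.94). In skin it was 3.99 points (-3.395 to 12.2), and for the 5′ and middle ranges the interval of the difference included 0 in both tissues.

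CDR3 loops were of nearly the same length in the 2 tissues. The mean was 13.5 ± 1.40 amino acids in skin (SD over 701 clones) and 13.6 ± 1.36 in the lymph node (SD over 2486 clones), a difference of -0.10 (-0.217 to 0.0166). That interval lay below 0 under 2 of 10 other settings, at -0.12 (-0.233 to -0.00525) with clones by TRA alone and -0.15 (-0.279 to -0.0305) without clones that share a TRA sequence. Expanded skin clones averaged 13.7 ± 1.29 and singleton clones 13.5 ± 1.44, a difference of 0.21 (-0.0177 to 0.431). The interval lay above 0 under 4 of 11 other settings. The difference was 0.39 (0.0517 to 0.726) with at least 3 UMIs a contig and 0.34 (0.125 to 0.550) with clones by TRA alone. It was 0.26 (0.0168 to 0.501) without clones that share a TRA sequence and 0.17 with each cell counted once. In that last setting the cells of a clone repeat the same sequence, so its interval is too narrow and is not given. Joins in skin had lost slightly more of the J segment, 3.05 germline bases on average against 2.80 in the lymph node. The difference was 0.24 bases (0.0163 to 0.473), with a lower limit close to 0. Unlike the lengths, it was not computed under other settings. The number of bases between V and J was 2.65 in skin and 2.70 in the lymph node, a difference of -0.05 (-0.211 to 0.120). The J segment was kept whole in 24.0% of skin clones and 24.6% of lymph node clones.

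Length depended on which segment was joined. Over clones of both tissues the longest loops belonged to TRAJ53 (15.4 ± 1.18 amino acids, SD, n = 43 clones), TRAJ52 (15.2 ± 0.98, n = 51) and TRAJ32 (15.1 ± 1.04, n = 102), whose germline segments each give 35 bases to the loop. The shortest, by median length with ties by mean, belonged to TRAJ33 (12.2 ± 1.42, n = 88), TRAJ13 (12.4 ± 1.09, n = 61) and TRAJ9 (12.5 ± 1.30, n = 85), which give 26, 26 and 27 bases. By mean alone TRAJ43 (12.45 ± 1.17, n = 64), which gives 26 bases, was shorter than TRAJ9 (12.54). Across the 42 segments with at least 20 clones, which give between 26 and 35 bases, mean length followed germline length with a Pearson correlation of 0.92 and a Spearman rho of 0.91. This is a relation across segments, and part of it is arithmetic, since the J bases are counted in the loop. Segments with the same germline length still differed: TRAJ39 and TRAJ57 both give 32 bases, and their loops averaged 13.5 ± 1.32 and 14.5 ± 1.23 amino acids. TRAJ39 joins had lost 5.19 J bases on average and TRAJ57 joins 2.96.

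**Figure D5:**
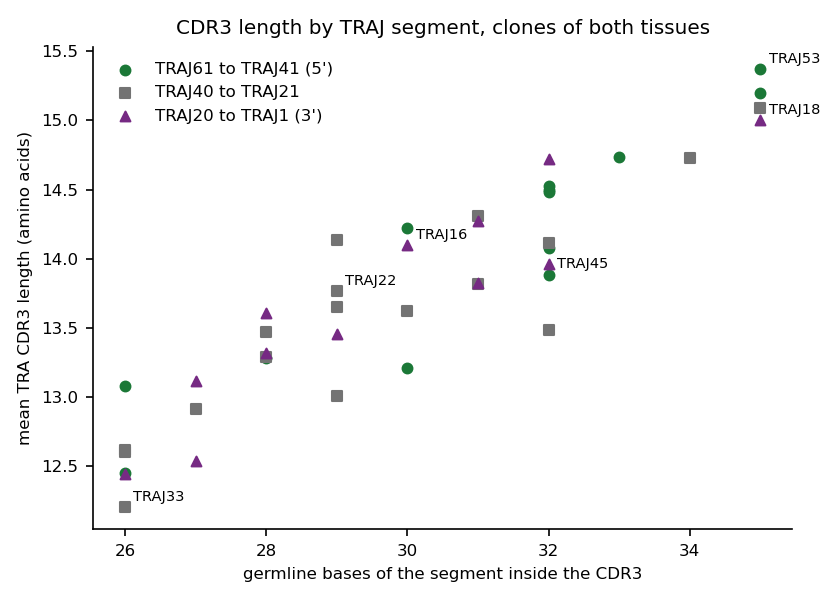
Mean TRA CDR3 length (amino acids) of clones of both tissues against the number of germline bases that the TRAJ segment gives to the CDR3, for the 42 segments with at least 20 clones. Circles are segments of the 5′ range, squares of the middle and triangles of the 3′ range, and the length axis does not start at 0. TRAJ33 lies lowest at 12.2 and TRAJ53 highest at 15.4 amino acids.

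The 5′ end of the cluster gave the longer loops. Clones of the 5′ range averaged 13.98 ± 1.56 amino acids in skin (n = 163) and those of the 3′ range 13.45 ± 1.45 (n = 163), a difference of 0.53 (0.207 to 0.860). In the lymph node the means were 13.9 ± 1.39 (n = 671) and 13.5 ± 1.36 (n = 528), a difference of 0.37 (0.211 to 0.524). The germline J part of the loop was 1.86 bases longer in the 5′ range than in the 3′ range over skin clones (1.28 to 2.44) and 1.32 bases longer over lymph node clones (1.02 to 1.61). Joins of the 5′ range had lost 0.64 more J bases in skin (0.0233 to 1.27) and 0.53 more in the lymph node (0.245 to 0.819). The bases between V and J differed by -0.15 (-0.585 to 0.278) in skin and 0.11 (-0.126 to 0.349) in the lymph node.

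TRAJ18 and TRAJ33 are known for the semi-invariant receptors of natural killer T cells, which pair TRAJ18 with TRAV11, and of mucosal-associated invariant T cells, which pair TRAJ33 with TRAV1. TRAJ18 was used by 10 skin and 28 lymph node clones, and TRAJ33 by 23 skin and 66 lymph node clones. None of these clones had the matching V segment, and, with 3 clones as the limit that a count of 0 allows, the share of each pair could be up to 0.428% of skin clones and 0.121% of lymph node clones, for counting error only. Zbtb16 and Klrb1c, genes of natural killer T cells, were not among the genes of the lymph node table.

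Lymph node cells could be grouped by the J range of their clone and compared in RNA. Trac, the constant gene downstream of the cluster, had 645 UMIs in 573 cells with a 5′ segment, 1144 in 1107 cells with a middle segment and 424 in 455 cells with a 3′ segment. These are 242 (224 to 261), 227 (214 to 241) and 216 (196 to 238) CPM, counts scaled to a common total, with exact Poisson intervals that overlap. Of the genes that join the segments, Rag1, Rag2, Dntt, Lig4 and Nhej1 were not in the table. Prkdc, which encodes the DNA-dependent protein kinase of end joining, had 317 UMIs (21.8 CPM), and Xrcc6, which encodes a Ku subunit that binds DNA ends, had 315 (21.6). Cells grouped by J range come from 1 library, so these values have no replicate error.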

How the data were processed

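Receptor contigs and lymph node RNA counts were taken as deposited. The authors' contig tables give V and J calls, CDR3 sequences and UMI counts per contig, 1 table per tissue, with the 4 lanes of a library pooled. The tissue of a table was read from its own name. Per the submitters' processing notes the tools included RSEM and Bowtie, on the build mm10. Which program assembled the contigs was not given in the sources used here. The deposited gene table holds UMI counts by gene and by lymph node cell, as whole numbers.

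Contigs were kept if productive, full-length and of high confidence, and none was of low confidence. In a cell with 2 TRA chains the one with most UMIs gave the J segment. A J number range was called by segment number, and a fold by the ratio of clone shares. Shares carry exact Clopper-Pearson intervals, differences of shares Newcombe intervals, medians order-statistic intervals and differences of means normal intervals, all at 95% and for counting error only. The germline J part of a CDR3 was the exact match of its 3′ end to the GENCODE M21 transcript of the called segment, read back from the loop end. The V part was the exact match of its 5′ end to the V segment, limited to the bases that the J part left. Neither had a minimum in a single clone. The place in each segment where the loop ends or starts was set from matches of at least 9 bases for J and 5 for V. All 90 TRAV names matched the annotation. Tests on simulated data covered the ratio of segment shares, the interval of a difference in 5′ share and the number of J bases removed. The other statistics were not tested in this way. Python 3.11.15, pandas 2.3.3, scipy 1.17.1 and statsmodels 0.14.6 were used.

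Named segments are the 5 with most clones per tissue, the 4 highest and 4 lowest ratios of skin over lymph node share (at least 20 clones), the 3 largest and 3 smallest gaps between cell and clone share, the 3 highest and 3 lowest expanded over singleton ratios (at least 10 skin clones), the 3 longest and 3 shortest loops, TRAJ18, TRAJ33 and the segments not seen. Loops were ranked by median length, with ties by mean. Other segments were chosen after their values were seen. The members and lists were chosen with earlier results of these data known. Alternatives changed the UMI minimum, the clone definition, the cells kept, the ranges, the weight and the fold.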

Additional observations from a re-analysis of the deposited data

Results flagged for a closer look

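TRAJ41, annotated as a gene and not seen in a productive contig, appeared in 7 contigs that were not productive or not full-length. Of these, 1 was in skin and 6 were in the lymph node, and they were counted as contigs, not as distinct rearrangements. These contigs entered no comparison of clones. TRAJ25 appeared in 2 such contigs, both of the lymph node, and TRAJ19 in 1, of skin. TRAJ3, TRAJ20, TRAJ29, TRAJ46 and TRAJ59 appeared in none.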

How the results depend on the processing

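The main comparisons had 150 values under alternative settings, and some of these could not move. Contigs of any confidence repeat the reported values, because no contig was of low confidence, and this setting is also in the counts of settings given above. Leaving out the largest skin clone cannot change a lymph node value. Of the 150, 138 moved by less than the counting interval, or by less than 1.5 times for counts. Of those, 2 differences of a range share had the other sign: the middle share in skin minus lymph node was -1.57 points with contigs of at least 3 UMIs (1.73 as reported), and the 3′ share in expanded minus singleton clones was -1.05 points with clones by TRA alone (4.03 as reported). With each cell counted once, the 5′ share in skin minus lymph node was 4.66 points, the middle share -5.55 points and the median J number 2 higher, and in expanded minus singleton skin clones the 5′ share was 14.7 points and the median J number 4 higher. In this setting the cells of a clone are repeats of 1 rearrangement. With contigs of at least 3 UMIs, which left 345 skin and 1576 lymph node clones, the median J number in skin minus lymph node was -3 and 13 TRAJ segments were past 1.5-fold. That number was 4 with clones defined by TRA alone, 5 in cells with exactly 1 TRA and 1 at a fold of 2. With the cluster divided between TRAJ31 and TRAJ30 only, the 3′ share in expanded minus singleton clones was -2.95 points. The correlation of V position with J number in skin was 0.65 in families with no D or N copy, which lie only at the ends of the TRAV stretch. The causes of these changes were not tested. Leaving out the largest clone moved the 5′ difference in skin minus lymph node to -3.85 points. TRAJ45 held 1.56% of skin cells without clones of both tissues and 11.6% without clones that share a TRA sequence. No paired analysis was possible because lanes share only a number and no test was made. Depth limits what can be said of 1 segment: with 701 skin clones, a segment at 2% carries an interval about as wide as its share.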
